A study of Mus musculus with 6 samples.

Results

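The primitive streak and early mesoderm regulators examined here were 10 listed genes, namely the ligand genes Wnt3 and Fgf8, the streak transcription factor genes T, Mixl1, Eomes, Gsc and Evx1, and the mesoderm transcription factor genes Mesp1, Tbx6 and Tbx20. They were picked by platform gene symbol, and 9 of the 10 had a probe set, out of 19938 genes measured. Each of the 9 was read by 1 probe set that carried no other symbol. T, the Brachyury gene, was matched to no probe set by symbol, Entrez identifier or RefSeq accession, so it has no value here.

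All 6 samples were V6.5 mouse embryonic stem cells kept in serum and leukemia inhibitory factor on inactivated embryo fibroblasts, and each was read on 1 GeneChip Mouse Gene 1.0 ST array. A hairpin RNA was switched on with doxycycline (dox) at 1 µg/ml. The groups were dox-treated cells with hairpin 1 or hairpin 2 against Pcgf6 (n = 2), untreated cells with the same hairpins (n = 2), dox-treated cells with a scrambled hairpin (n = 1) and untreated scrambled cells (n = 1). Pcgf6 encodes a subunit of the repressive polycomb complex PRC1.6, and the series title names mesodermal differentiation as a subject. The labels give neither the length of dox treatment nor whether a line was 1 clone, and they call the cells stem cells, not differentiating cultures. Values are log2 expression, and a change is the array with dox minus the array without dox of the same line.

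In the mouse embryo, WNT3 and NODAL signalling at the posterior epiblast switches on T, Eomes and Mixl1, and the primitive streak forms there. Cells leaving the streak become mesoderm or endoderm under factors such as Mesp1 and Tbx6. Embryonic stem cell cultures can hold some cells that start this programme, and in such bulk samples more expressing cells and more RNA per cell cannot be told apart.

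Knockdown was visible in both targeted lines. Pcgf6 measured 9.39 and 9.27 with dox under hairpins 1 and 2, against 11.56 and 11.70 without dox. In scrambled cells it measured 11.82 with dox and 11.80 without. Its change over both hairpins was -2.30 (SE 0.10, limma adjusted p = 0.000846). Over all probe sets, the lower quartile of an array was 5.50 to 5.56 and its upper quartile 9.08 to 9.14. Whether a probe set stood above background was not tested, since no detection call was used.

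None of the 9 measured genes passed the test in any comparison, so the values that follow describe 6 arrays. Induced against uninduced Pcgf6 hairpins, limma called 0 of the 9 genes, and it called 0.201% of all genes. For the difference between the hairpin change and the scrambled change the count was again 0 of 9, with 0.0702% of all genes called. With dox against no dox over all 3 lines it was 0 of 9, and 0% of all genes were called. Without the induced scrambled array, 54 genes were called, and none of them was among the 9. In that fit only Pcgf6 hairpin arrays were left with dox, so it no longer compares dox over all lines. At an unadjusted p under 0.05 the counts were 3, 1 and 5 of the 9 genes, against 8.75%, 4.55% and 7.16% of all genes in the same order of comparisons. The comparisons share arrays and are not independent of each other.

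Wnt3, Mixl1 and Tbx20 were higher on all 3 induced arrays than on all 3 uninduced arrays, as 4.08% of all genes were. Gsc and Mesp1 were lower on all 3 induced arrays, as 8.07% of all genes were. In all, 5 of 9 genes had non-overlapping groups with and without dox, against 12.2% of all genes. Such non-overlap by itself fixes the sign of the change in every line. The shared sign of the scrambled line and both Pcgf6 hairpins is therefore no separate result for these 5 genes. The genes were listed with earlier results of these data known, so the shares are descriptions.

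Promoter sequences are shown for Wnt3, Tbx20, Gsc and Mesp1, 4 of the 5 genes whose groups with and without dox did not overlap. The fifth is Mixl1. Each is the 250 bases before the gene's start, 5′ to 3′ on the gene's strand, from RefSeq (GRCm38.p6), with capitals marking CG dinucleotides, the feature of CpG islands on which many polycomb complexes gather. Wnt3 lies at chr11:103773925-103774174 (+), Tbx20 at chr9:24774304-24774553 (-), Gsc at chr12:104473237-104473486 (-) and Mesp1 at chr7:79793591-79793840 (-).
Wnt3: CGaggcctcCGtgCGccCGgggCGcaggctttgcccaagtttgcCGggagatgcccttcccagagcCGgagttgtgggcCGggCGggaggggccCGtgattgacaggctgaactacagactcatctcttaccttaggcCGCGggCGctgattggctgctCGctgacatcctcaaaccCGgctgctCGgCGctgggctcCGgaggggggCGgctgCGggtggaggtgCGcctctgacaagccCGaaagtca
Tbx20: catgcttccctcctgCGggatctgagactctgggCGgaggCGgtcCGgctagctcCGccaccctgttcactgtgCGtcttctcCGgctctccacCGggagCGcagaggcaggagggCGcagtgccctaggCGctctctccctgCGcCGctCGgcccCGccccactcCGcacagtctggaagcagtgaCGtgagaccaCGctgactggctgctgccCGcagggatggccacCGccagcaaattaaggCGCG
Gsc: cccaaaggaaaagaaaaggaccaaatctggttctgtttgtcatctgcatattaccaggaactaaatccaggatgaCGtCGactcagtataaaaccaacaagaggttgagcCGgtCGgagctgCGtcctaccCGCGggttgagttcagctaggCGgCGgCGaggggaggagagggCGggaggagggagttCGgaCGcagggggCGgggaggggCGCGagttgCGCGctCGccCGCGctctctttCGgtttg
Mesp1: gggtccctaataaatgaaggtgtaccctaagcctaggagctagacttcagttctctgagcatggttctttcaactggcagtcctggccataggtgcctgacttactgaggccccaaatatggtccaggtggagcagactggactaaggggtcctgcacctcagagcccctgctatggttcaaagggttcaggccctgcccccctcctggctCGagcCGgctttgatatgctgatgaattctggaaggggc

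The windows of Wnt3, Tbx20 and Gsc each held 22 CG dinucleotides. Wnt3 and Tbx20 measured higher with dox and Gsc lower, and a link between CG count and change was not tested. The Mesp1 window held 2. Over 32851 promoter windows of that length the median was 6 and the quartiles were 2 and 16. RefSeq windows were matched for 8 of the 10 genes, and Eomes had 8 CG dinucleotides, Evx1 10, Tbx6 6 and T 14. Then 3 motifs were searched on both strands: the E-box CACGTG, read by the MGA and MAX subunits of PRC1.6, the E2F motif GCGGGAA, read by its E2F6 subunit, and the T-box motif TCACACC, read by T and its relatives. They occur in 6.02%, 3.82% and 3.33% of all windows, and none occurred in the 8 windows of the listed genes. These letters in a window of this length say nothing of where a factor binds.

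Wnt3 encodes the WNT ligand needed for streak formation. With dox it measured 8.10 and 7.97 under hairpins 1 and 2, against 7.88 and 7.45 without dox. In scrambled cells it measured 8.44 with dox and 7.89 without. The 3 induced arrays were above all uninduced arrays, and uninduced hairpin 2 was the lowest. The change was 0.22 and 0.52 in the lines with hairpins 1 and 2, and 0.56 in the scrambled line. Over both hairpins Wnt3 averaged 8.04 ± 0.09 with dox and 7.67 ± 0.30 without (SD, n = 2 each), a difference of 0.37 (95% interval 0.0080 to 0.73, limma adjusted p = 0.564). That difference was 0.58 without the uninduced hairpin 1 array and 0.15 without the uninduced hairpin 2 array. Over all lines it averaged 8.17 ± 0.24 with dox and 7.74 ± 0.25 without (SD, n = 3 each), a 1.35-fold difference with an adjusted p of 0.673 by limma. Without the uninduced hairpin 2 array that log2 difference was 0.29. Its hairpin change differed from its scrambled change by -0.19 (95% interval -0.81 to 0.43), so neither a smaller nor a larger response under the Pcgf6 hairpins could be told.

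Fgf8 encodes the fibroblast growth factor that moves cells out of the streak. With dox it measured 8.33 and 8.43 under hairpins 1 and 2, against 8.40 and 8.33 without. Scrambled cells measured 8.78 with dox and 8.48 without. The hairpin groups overlapped, and all 4 hairpin arrays lay below both scrambled arrays, which held for 8.38% of all genes. Its change over both hairpins was 0.016 (95% interval -0.20 to 0.23, limma adjusted p = 0.981).

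**Figure D1:**
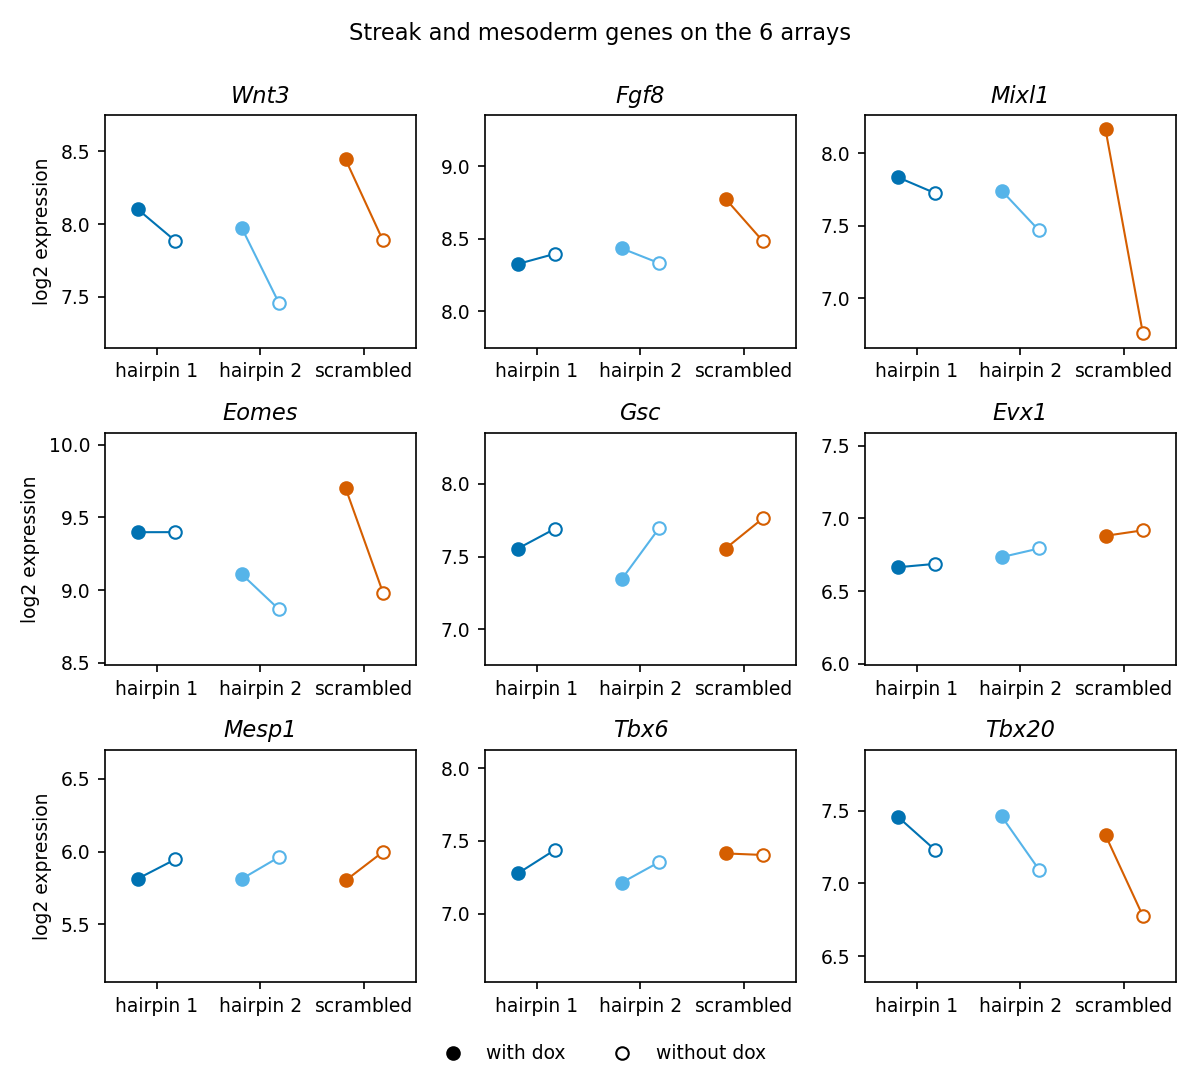
Log2 expression of the 9 measured genes on each array, 1 panel per gene with an axis of the same length in log2 units. Filled points are arrays with dox and open points arrays without, joined within a line. Mixl1 in the scrambled line (8.16 with dox, 6.76 without) has the longest line drawn, and Evx1 is nearly flat.

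Mixl1, the homeobox gene of the streak and of mesendoderm, varied most. Under hairpins 1 and 2 it measured 7.83 and 7.74 with dox, against 7.72 and 7.47 without. In scrambled cells it measured 8.16 with dox and 6.76 without, the highest and the lowest of the 6 values. The changes were 0.11, 0.27 and 1.40, the last a 2.64-fold difference between single arrays. Both scrambled arrays stood outside the hairpin arrays, on opposite sides. Induced hairpin cells were on average 0.38 lower than induced scrambled cells (difference -0.38), and uninduced hairpin cells were 0.84 higher than uninduced scrambled cells, differences that were not tested apart from each other. Over both hairpins the change was 0.19 (95% interval -0.08 to 0.46, limma adjusted p = 0.676), with 0.32 when the uninduced hairpin 1 array was left out and 0.064 when the uninduced hairpin 2 array was. The hairpin change minus the scrambled change was -1.21 (95% interval -1.68 to -0.74). That interval is for Mixl1 alone; over all genes its adjusted p was 0.281 by limma, and the scrambled line had no replicate. Over all 3 lines Mixl1 averaged 7.91 ± 0.22 with dox and 7.32 ± 0.50 without (SD, n = 3 each), a difference of 0.60 (SE 0.24, limma adjusted p = 0.673). Without the uninduced scrambled array that difference was 0.32.

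Eomes, the T-box gene that acts in the streak ahead of endoderm and cardiac mesoderm, had the same order of lines. It measured 9.40 and 9.11 with dox under hairpins 1 and 2, against 9.40 and 8.87 without. The scrambled line measured 9.70 with dox and 8.98 without, a 1.65-fold difference. Groups with and without dox overlapped, and the hairpin 1 line had a change of -0.00045. Its change over both hairpins was 0.12 (SE 0.19, limma adjusted p = 0.904), and its 95% interval ran from -0.33 to 0.57. Mixl1 and Eomes were the 2 of 9 genes at least 1.5-fold higher in the scrambled pair, where 1.48% of all genes were. Under either Pcgf6 hairpin 0 of 9 were, where 0.627% of all genes were under hairpin 1 and 2.17% under hairpin 2.

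Gsc, the goosecoid homeobox gene of the anterior streak and organizer, measured lower with dox. Its values were 7.55 and 7.34 with dox under hairpins 1 and 2, against 7.69 and 7.70 without. The scrambled line had 7.56 with dox and 7.76 without. All 3 induced arrays were below all uninduced arrays. The change over both hairpins was -0.24 (95% interval -0.49 to -0.0013, limma adjusted p = 0.571), and over all lines it was -0.23 (SE 0.08, adjusted p = 0.673). The hairpin change was -0.35 without the induced hairpin 1 array and -0.14 without the induced hairpin 2 array. The difference from scrambled was -0.037 (95% interval -0.46 to 0.38).

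Evx1, a homeobox gene of the posterior streak, differed little with dox. It measured 6.66 and 6.73 with dox under hairpins 1 and 2, against 6.69 and 6.79 without, and 6.88 and 6.92 in scrambled cells with and without dox. The changes were -0.023, -0.059 and -0.038. Like Fgf8, it was lower on all 4 hairpin arrays than on both scrambled arrays.

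**Figure D2:**
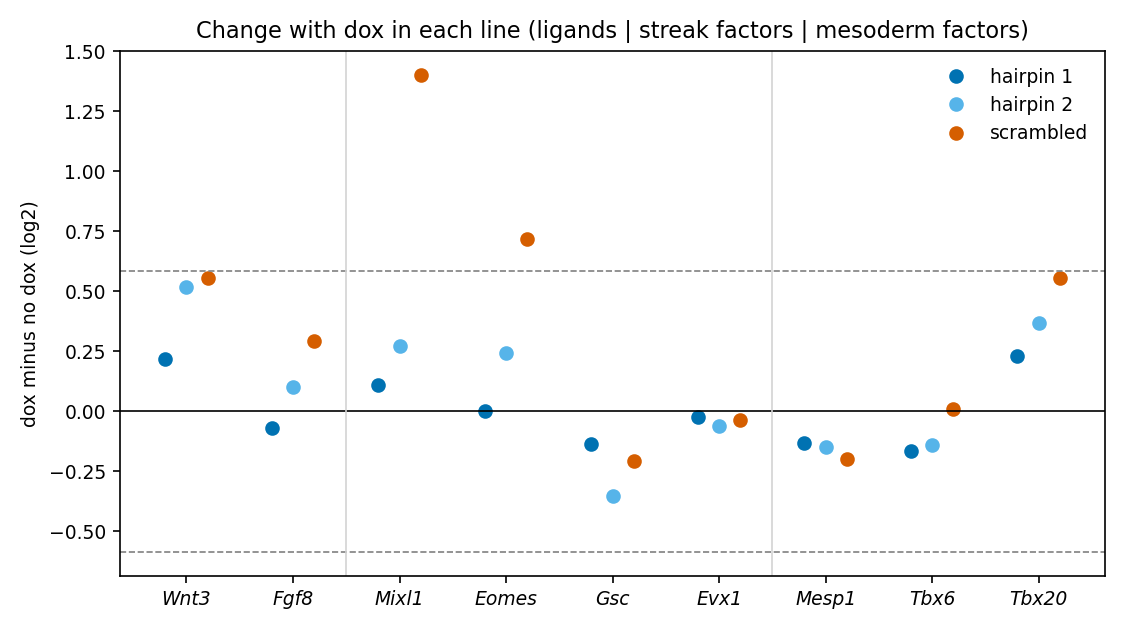
Change with dox (log2, with dox minus without) of each measured gene in the hairpin 1, hairpin 2 and scrambled lines, ordered as ligands, streak factors and mesoderm factors. Dashed lines mark 1.5-fold, and Mixl1 (1.40) and Eomes (0.72) in the scrambled line alone pass them.

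Mesp1, the bHLH gene of nascent and cardiac mesoderm, had the tightest groups. It measured 5.81 on both hairpin arrays with dox, against 5.95 and 5.96 without dox. Scrambled cells had 5.80 with dox and 6.00 without. The 3 induced arrays averaged 5.81 ± 0.0069 and the 3 uninduced arrays 5.97 ± 0.026 (SD, n = 3 each), a difference of -0.16 (SE 0.06). That is a 1.12-fold difference, and it did not pass (limma adjusted p = 0.673). Mesp1 was among the dimmest 25% of genes by mean level.

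Tbx6, the T-box gene of paraxial mesoderm, measured 7.28 and 7.21 with dox under hairpins 1 and 2, against 7.44 and 7.35 without. In scrambled cells it measured 7.41 with dox and 7.40 without. The hairpin groups did not overlap, but the scrambled line was flat. Its change was -0.15 over both hairpins (SE 0.09, limma adjusted p = 0.674). Its scrambled change of 0.011 lay on the other side of 0 from both hairpin changes, as in 23.4% of all genes, but it was -0.017 with quantile normalization and -0.016 with median centring.

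Tbx20, the T-box gene of cardiac mesoderm, had the smallest unadjusted p of the 9 genes over both hairpins. It measured 7.46 on both hairpin arrays with dox, against 7.23 and 7.09 without. The scrambled line measured 7.33 with dox and 6.78 without. All 3 induced arrays were above all uninduced arrays, and the change was 0.23 and 0.37 under hairpins 1 and 2, against 0.56 in the scrambled line. Over both hairpins it was 0.30 (95% interval 0.08 to 0.52), which did not pass over all genes (limma adjusted p = 0.487). Over all lines Tbx20 averaged 7.42 ± 0.07 with dox and 7.03 ± 0.23 without (SD, n = 3 each), a difference of 0.38 (SE 0.12, limma adjusted p = 0.673), or 0.26 without the uninduced scrambled array.

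**Figure D3:**
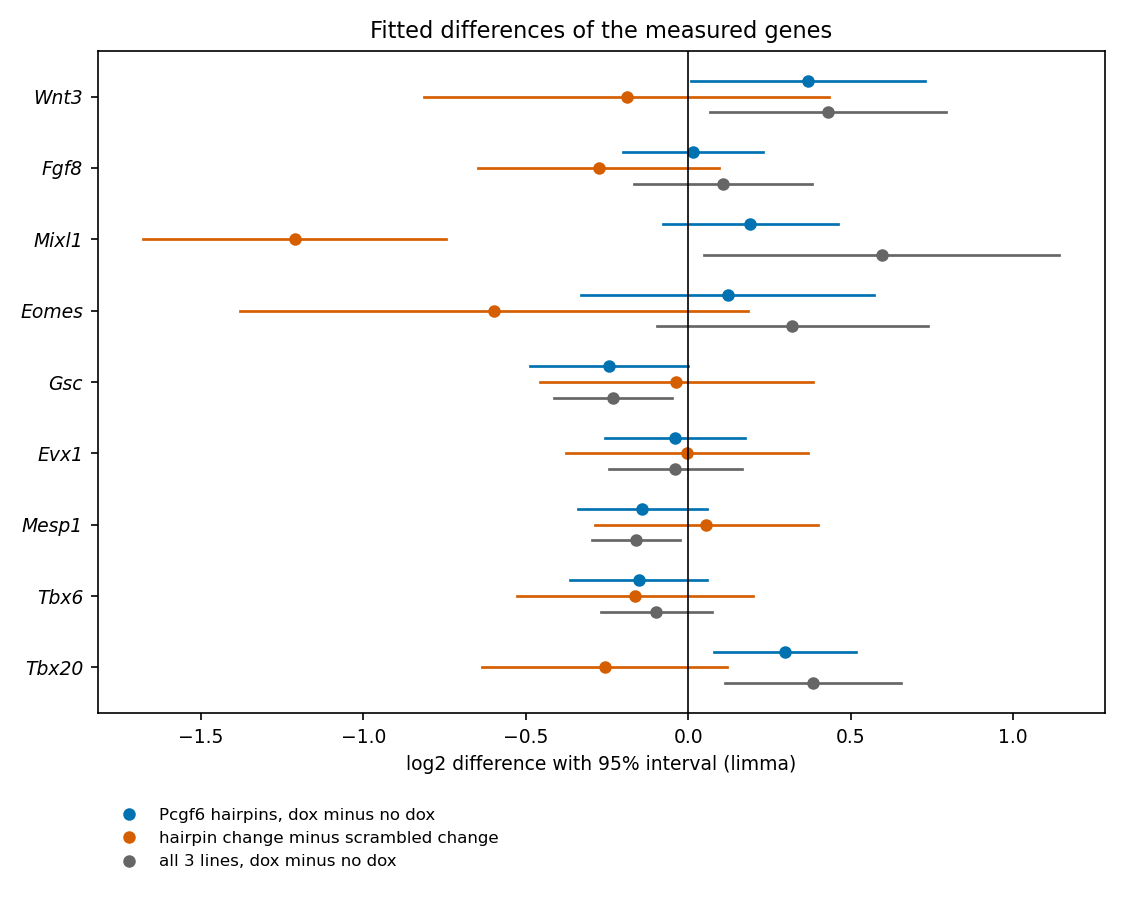
Fitted log2 differences with 95% intervals from limma for the 9 genes: Pcgf6 hairpins with dox minus without, hairpin change minus scrambled change, and all 3 lines with dox minus without. Intervals are for each gene alone and none of the 9 passed over all genes. The Mixl1 difference from scrambled, -1.21, lies farthest from 0.

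Set side by side, 6 of 9 genes had non-overlapping hairpin groups, against 39.7% of all genes. Wnt3, Mixl1 and Tbx20 were higher on both induced arrays, as 17.9% of all genes were, and Gsc, Mesp1 and Tbx6 were lower, as 21.8% were. For 7 of the 9 genes the change had the same sign under both hairpins, positive for 3 and negative for 4. The share of all genes with 1 sign under both hairpins was not counted, so the 7 have no baseline. In 6 of the 9 genes the change in the scrambled pair was greater in size than under either hairpin, as in 33.2% of all genes. The changes were lowest under hairpin 1, higher under hairpin 2 and highest in scrambled for 6 of 9 genes (Wnt3, Fgf8, Mixl1, Eomes, Tbx6 and Tbx20), an order found in 15.7% of all genes. The medians of the 9 genes were -0.023, 0.10 and 0.29 in that order of lines, and those of all genes 0.00098, -0.020 and -0.013.

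Markers of feeder fibroblasts had the same order of medians. Of 21 listed, 20 were measured, and their medians of change were -0.016, 0.44 and 0.56 under hairpin 1, hairpin 2 and scrambled. Of the 20, 7, 19 and 19 measured higher with dox, a count not made over all genes. Gene by gene, 10 of the 20 followed the order, which 15.7% of all genes did. Their mean level was 9.94 and 10.29 on the induced hairpin arrays and 9.94 and 9.87 on the uninduced ones, and in scrambled cells 9.62 with dox and 9.09 without. None passed in any of the 3 comparisons, where 0.201%, 0.0702% and 0% of all genes passed. With that mean level as a covariate the change over all lines was 0.44 for Mixl1 and 0.26 for Tbx20, against 0.60 and 0.38 without it. For Wnt3 it was 0.55 and for Eomes 0.37, against 0.43 and 0.32 without it. None passed the threshold. The Mixl1 difference from scrambled was -1.24 with the covariate and -1.21 without. In that fit each scrambled group was a single array, so the slope of the covariate came from the hairpin arrays alone. Whether fibroblast RNA contributed to the values of the 9 genes was not tested, as a covariate drawn from the same 6 arrays cannot decide it. The 12 embryonic stem cell markers, among them Pou5f1 and Nanog, had mean levels of 11.86 and 11.77 on the induced and 11.83 and 11.86 on the uninduced hairpin arrays, and 11.93 and 12.02 in scrambled cells with and without dox. Their medians of change were 0.014, -0.097 and -0.080 under hairpin 1, hairpin 2 and scrambled. Of the 12, 8, 1 and 3 measured higher with dox in that order of lines, a count not made over all genes.

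The genes nearest to Mixl1 in their 3 changes, by Euclidean distance over all named genes, were Prrx1 (0.10, 0.42 and 1.12 in the hairpin 1, hairpin 2 and scrambled lines), Fst (0.0091, 0.45 and 1.07) and Twist2 (-0.10, 0.27 and 1.07). Prrx1 and Twist2, mesenchymal transcription factor genes, are both on the fibroblast list, and Fst encodes the activin antagonist follistatin. Their distances were 0.32, 0.39 and 0.40. Nearest to Wnt3 were Commd3 (0.24, 0.51 and 0.51), Prkg1 (0.24, 0.58 and 0.57) and Chst11 (0.21, 0.58 and 0.52), at distances of 0.054, 0.066 and 0.072.

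Other genes of streak and mesoderm formation were taken as 5 lists with 67 of 68 genes measured. By limma 0 of the 67 rose or fell in any of the 3 comparisons, where 0.201%, 0.0702% and 0% of all genes did. At an unadjusted p under 0.05 there were 8 of the 67 in each comparison, against 8.75%, 4.55% and 7.16% of all genes. With dox, 0 genes were at least 1.5-fold higher in the hairpin 1 line, 4 in the hairpin 2 line and 9 in scrambled cells. Of all genes, 0.627%, 2.17% and 1.48% were, in the same order of lines. In the hairpin 1 line Cer1 alone of the 67 was at least 1.5-fold lower.

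Streak signals (20 measured) had median changes of -0.0043 and 0.18 under the Pcgf6 hairpins 1 and 2, and 0.28 in the scrambled line. Tdgf1 and Fgf4 are on this list and also among the embryonic stem cell markers. Sp5, a direct WNT target, measured 0.34 (SE 0.09, limma adjusted p = 0.420) over both hairpins and 0.57 in scrambled. The R-spondin gene Rspo3, whose product strengthens WNT signalling, measured 0.30 and 0.51, and Furin, a protease that activates NODAL, 0.30 and 0.40. The strongest values in scrambled belonged to Wnt5a (1.04), Wnt8a (0.74) and Bmp2 (0.69), which measured 0.21, -0.10 and 0.27 over both hairpins. These 3 were named for their scrambled change, which rests on 1 pair of arrays.

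Anterior streak genes (10 measured) had medians of -0.026, -0.10 and 0.12. Cer1, a secreted antagonist of NODAL, BMP and WNT, measured -0.74 and -0.54 under hairpins 1 and 2 and 0.37 in scrambled, with a mean hairpin change of -0.64 (SE 0.32, limma adjusted p = 0.641). Foxa2, the forkhead gene of endoderm and node, measured -0.16, -0.28 and 0.34. Lhx1, a LIM homeobox gene of the anterior streak, measured -0.24, 0.17 and 0.84, and the difference between its hairpin and scrambled changes had an adjusted p of 0.789 by limma. For Cer1, Foxa2 and Lhx1 the changes of the lines did not all have 1 sign. The list's highest scrambled change was that of Fst, whose follistatin product antagonises activin, with 0.0091 and 0.45 under hairpins 1 and 2 and 1.07 in scrambled.

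Paraxial mesoderm genes (12 measured) had medians of 0.0085, -0.048 and 0.019. The Notch ligand gene Dll1 measured -0.51 and -0.27 under hairpins 1 and 2 and 0.25 in scrambled. Tcf15, a somite bHLH gene, measured -0.16, -0.55 and -0.34, and the forkhead gene Foxc1 0.11, 0.51 and 0.31. Lateral and cardiac mesoderm genes (15 measured) had medians of 0.034, 0.033 and 0.086. Gata6 measured -0.063, 0.45 and 0.81 and the receptor gene Pdgfra, also carried by fibroblasts, -0.073, 0.88 and 0.65. Isl1, a gene of cardiac progenitors, measured -0.26, -0.22 and 0.0099.

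Genes of the posterior body and of the epithelial to mesenchymal transition (10 measured) had medians of 0.044, 0.15 and 0.25. The cadherin genes Cdh2 (0.038, 0.61 and 0.71) and Cdh11 (0.078, 0.50 and 0.72) and the repressor gene Zeb2 (-0.10, 0.99 and 0.45) had the strongest values, and mesenchymal cells such as fibroblasts express all of them.

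**Figure D4:**
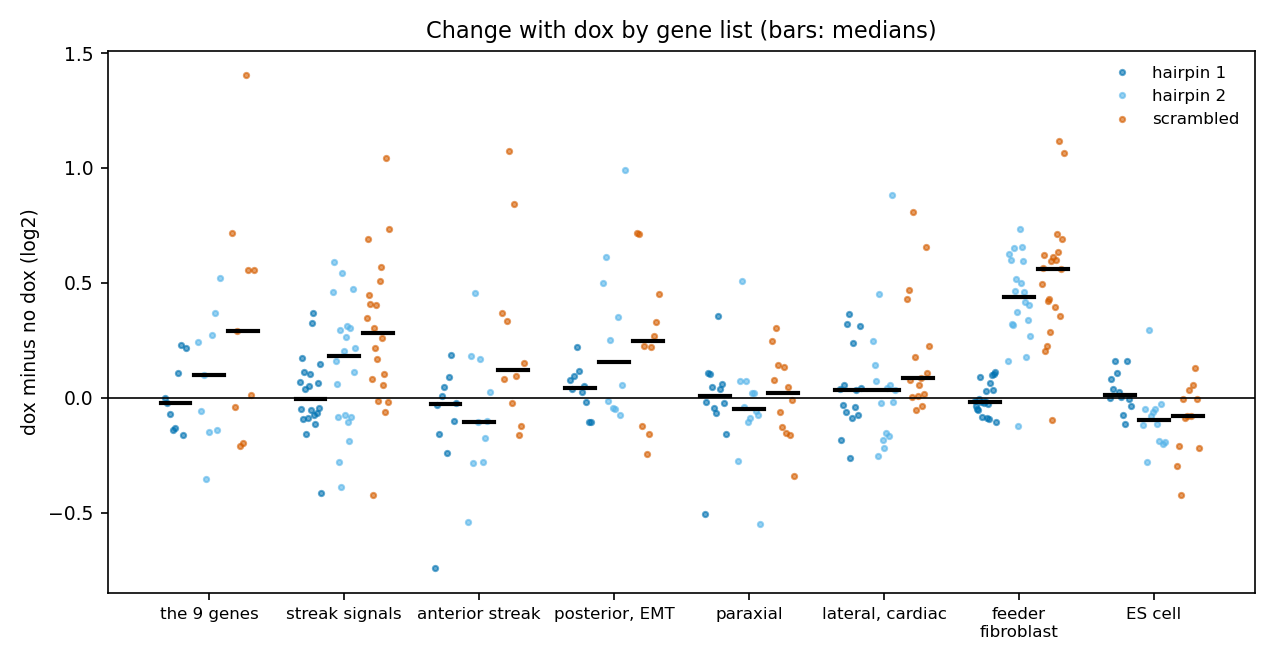
Change with dox (log2, with dox minus without) of each gene in the hairpin 1, hairpin 2 and scrambled lines, by gene list, with bars at the medians. The fibroblast medians are -0.016, 0.44 and 0.56, and those of the 9 streak and mesoderm genes -0.023, 0.10 and 0.29.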

How the data were processed

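The deposited values are log2 expression which the authors computed by RMA in Affymetrix Power Tools, as the submitters' processing notes name them. Versions, options and genome build are not given in the sources used here. RMA brings arrays to a common distribution, so a shift shared by most genes is removed. Values ran from 2.28 to 14.27. At most 0.0984% of probe sets held the same value on a pair of arrays, so each array counted once.

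Of 35556 probe sets, 21789 had 1 symbol, 1621 several and 12146 none. Of those with 1 symbol, 21698 were found in RefSeq (GRCm38.p6) by Entrez identifier. The probe set with the highest mean was kept for the 999 genes with several, which left 19938 genes. Models were fitted to all of them with limma 3.58.1 in R 4.3.3, with 1 mean for each of 4 groups (2 residual and 4.44 prior degrees of freedom) or with and without dox (4 and 3.66). Tests were two-sided, with Benjamini-Hochberg adjustment over all genes and a threshold of 0.05. The code was tested on simulated data. The single scrambled arrays were assumed to vary like the hairpin arrays. Within each hairpin group the 2 arrays came from different lines, and no line was repeated under 1 condition. The p-values of the 4-group fit therefore rest on the spread between the hairpin 1 and hairpin 2 lines. Those of the fit with and without dox rest on the spread between all lines. Neither separates differences between lines from technical spread.

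The hairpin number pairs arrays of the same line, and deviations of same-numbered hairpin arrays correlated at 0.181 across genes. The main fits left this pairing out, and the line entered as a block only in an alternative. With the block the SE over both hairpins was 0.10 for Eomes and 0.09 for Mesp1, against 0.19 and 0.08 without. Over all lines the SE of Wnt3 was 0.089 with the block and 0.16 without (limma adjusted p = 0.345 and 0.673). Genes named outside the 10 were up to 3 per list with the strongest hairpin or scrambled change and the 3 nearest to Mixl1 and to Wnt3, without predicted, RNA-only and receptor models. The genes, lists and rules were chosen with earlier results of these data known, and CG counting was added after values were seen. Alternatives were other normalizations, filters, probe set rules, a block for the line, a fibroblast covariate and leaving out arrays.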

Additional observations from a re-analysis of the deposited data

Results flagged for a closer look

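The change of Tbx6 with dox was -0.16 and -0.14 under hairpins 1 and 2 and 0.011 in the scrambled line, values that lay on either side of 0. The hairpin change minus the scrambled change was -0.16 (95% interval -0.53 to 0.20), and it did not pass (limma adjusted p = 0.999). Such opposite signs were found in 23.4% of all genes. For Tbx6 the opposite sign was lost under both other scalings, where the scrambled change was -0.017 (quantile normalization) and -0.016 (median centring).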

How the results depend on the processing

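None of the 9 measured genes passed under any alternative in any comparison, and the 67 other listed genes were not recomputed under the alternatives. The smallest adjusted p was 0.208 for Wnt3 over both hairpins (without uninduced hairpin 1), 0.135 for Mixl1 in the difference from scrambled (with the line as a replicate block) and 0.228 for Tbx20 over all lines (without uninduced hairpin 1). Of 112, 112 and 130 recomputed values of the 9 genes in the 3 comparisons, 8, 6 and 4 changed sign, all of them in Eomes, Gsc, Wnt3, Evx1 and Fgf8 and none past the threshold. For induced against uninduced hairpins, Fgf8 was -0.022 with quantile normalization, -0.0046 with median centring and -0.053 with the fibroblast covariate. With hairpin arrays left out, Fgf8 ran from -0.038 to 0.069, Eomes from -0.15 to 0.39 and Evx1 from -0.094 to 0.012. In the difference from scrambled, Evx1 was 0.0033 with median centring and 0.037 with the covariate. With arrays left out, Evx1 ran from -0.056 to 0.050, Wnt3 from -0.40 to 0.025 and Gsc from -0.14 to 0.069. Over all lines Evx1 was 0.030 with the covariate, and with arrays left out Evx1 ran from -0.10 to 0.019 and Fgf8 from -0.024 to 0.20.

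Counts of called genes moved more. Induced against uninduced hairpins gave 40 genes, 62 with an intensity trend, 7 without the dimmest 50% and 14 to 26 with a hairpin array left out (24 without induced and 14 without uninduced hairpin 1, 26 without induced and 14 without uninduced hairpin 2). The difference from scrambled gave 14 genes, 23 with the replicate block, 22 with median centring, 9 and 4 without the dimmest 25% and 50%, 5 with the covariate, 0 over all probe sets (1851 at an unadjusted p under 0.05) and 0 to 4 with a hairpin array left out (4 and 3 without induced hairpins 1 and 2, and 0 without either uninduced one, where 1000 and 1446 genes had an unadjusted p under 0.05). Dox over all lines gave 0 genes, and 0 to 54 with an array left out. The 54 came without the induced scrambled array, where only Pcgf6 hairpin arrays were left with dox, and 0 came without each other array. The replicate block changed no other count by over 1.5 times. The cause was not tested. Without the dimmest 25% of genes Mesp1 was not tested, and without the dimmest 50% neither were Evx1, Tbx6 and Tbx20. The number of arrays limits the precision.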
